A study of Mus musculus with 194 samples.

Results

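Ferritin stores iron inside cells, and the transcripts of its heavy and light subunits, Fth1 and Ftl1, were followed here together with 8 other genes of iron handling in single cells of known ancestry. The 10 genes were Fth1, Ftl1, Tfrc, Ireb2, Aco1, Steap3, Slc11a2, Slc40a1, Hmox1 and Ncoa4, all of which were found by symbol among the 23420 names of the expression table. They were selected on earlier results of the same cells: the joint variation of Fth1 and Ftl1, their relation to Tfrc, the likeness of a lineage's cells beside other lineages and the relation to hours since division. For the 10 genes, values of those 4 kinds are therefore given below as descriptions, with no test. Tests of these genes are kept to measures that the choice did not use. Examples are the difference between the cell types and, inside a lineage, the distance of sisters beside that of cousins. Likeness is also tested for lists of other iron genes, and slopes over all genes. Those lists were chosen with earlier results of these data known. Of 194 libraries, 178 were used, namely 97 CD8+ T-cells together with 81 L1210 cells, after cells marked as doublets and libraries with fewer than 1000 genes above 0 TPM (transcripts per 1000000) had been left out.

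L1210 is a mouse lymphocytic leukemia line (ATCC CCL-219, DBA subline 212), which was grown in RPMI 1640 with serum and received no treatment. The CD8+ T-cells were primary cells of C57BL/6J mice of both sexes aged 4 to 16 weeks, activated for 30 h with antibodies to CD3 and CD28 and then kept with IL2 and 2-mercaptoethanol, which the L1210 medium did not contain. In both types a founder cell was loaded into a lane of hydrodynamic traps, its progeny were imaged for 2 generations, and each cell was flushed out alone and sequenced with Smart-Seq2. The labels name each cell's sister, its cousins and the hours since its last division, which gave 34 CD8+ lineages (16 of them with 4 cells) and 26 L1210 lineages (14 with 4 cells). No label ties a lineage to a mouse, a culture or a day, so ancestry, animal and device run cannot be told apart. The p-values of cell type differences and slopes measure only the spread between lineages. Those of likeness set differences between lineages against the spread of cells within them, with cells as the units. Those of sisters and cousins rest on lineages or on the pairing of cells inside them. No p-value measures the spread between animals or cultures. The cell types also differ in strain, medium and origin, and each difference between them carries all of these.

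Cells keep free iron within narrow limits through 2 RNA-binding proteins, iron regulatory protein 1 (encoded by Aco1, which is also the cytosolic aconitase) and iron regulatory protein 2 (Ireb2). When iron is scarce these proteins bind hairpins in mRNA called iron responsive elements. In a 5′ untranslated region, as in both ferritin mRNAs, binding blocks translation, whereas in the 3′ untranslated region of the transferrin receptor mRNA, Tfrc, it protects the transcript from decay. Transcript levels of ferritin can therefore move apart from ferritin protein, which was not measured here. Proliferating lymphocytes take up iron mainly through the transferrin receptor, which is a classical marker of their activation.

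The hairpins are shown because 4 of the 10 genes carried a match, namely both ferritin genes, Slc40a1 and Tfrc. A bulged C, a 5-base stem and the loop CAGTGN, with pairing of the stem (G with T allowed), were searched on the transcript strand of the untranslated regions of the GENCODE M21 transcripts (GRCm38). Capitals mark the 6-base loop, and each line has 27 bases. Fth1 on chromosome 19 and Ftl1 on chromosome 7 each had 1 match in the 5′ untranslated region, at chr19:9982733-9982759 (plus strand) and chr7:45459780-45459806 (minus strand).
Fth1: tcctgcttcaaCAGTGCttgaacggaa
Ftl1: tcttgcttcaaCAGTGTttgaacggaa
The iron exporter gene Slc40a1 had 1 match in its 5′ untranslated region, at chr1:45925466-45925492 (minus strand).
Slc40a1: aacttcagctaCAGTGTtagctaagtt
Tfrc had 4 matches in its 3′ untranslated region, at chr16:32631220-32631246, chr16:32631599-32631625, chr16:32631664-32631690 and chr16:32631711-32631737 (plus strand).
Tfrc site 1: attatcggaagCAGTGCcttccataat
Tfrc site 2: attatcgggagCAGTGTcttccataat
Tfrc site 3: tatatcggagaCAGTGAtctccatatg
Tfrc site 4: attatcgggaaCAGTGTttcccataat

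The same pattern was present in the 5′ untranslated region of 31 of 21877 protein-coding genes (0.142%) and in the 3′ untranslated region of 129 (0.59%). The other 6 genes of the group had no match to these letters. The pattern required every base of the stem to pair, so elements that depart from it would have been missed. A match describes sequence only, and no binding was measured.

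The labels of the cells held against their defining markers. The 6 T-cell markers, Cd3e and Cd8a among them, summed to between 961 and 6399 TPM in the CD8+ T-cells and to no more than 45.7 TPM in L1210 cells, where Cd3e and Cd3g were listed at 0 in every cell. The B-lineage markers Vpreb1, Igll1 and Pax5 had medians of 483, 745 and 51.6 TPM in L1210 cells, where they were above 0 in 78, 78 and 77 of 81 cells, and were listed at 0 in every CD8+ T-cell. Cd79a and Cd79b had medians of 426 and 312 TPM in L1210 cells and of 0 in CD8+ T-cells, where Cd79b was above 0 in 47 cells (highest 283 TPM) and Cd79a in 10 (highest 27.9 TPM). Markers of macrophages and erythroid cells, which handle much iron, were low. All 9 macrophage and all 7 erythroid markers had a median of 0 in both types, and their highest sums in any cell were 120 and 57.2 TPM. The macrophage markers Cd163, Lyz2 and Cd68 were above 0 in 37, 36 and 33 of 81 L1210 cells (highest 20.5, 110 and 23.3 TPM). In CD8+ T-cells they were above 0 in 3, 0 and 12 cells. The number of genes above 0 TPM ranged from 2639 to 10905 in CD8+ T-cells (median 6862) and from 1610 to 10454 in L1210 cells (median 8402), while the ribosomal precursor Rn45s took 0.984 to 41.8% and 11.4 to 79.3% of all TPM. TPM keep no record of read depth, so the precision of a single value is unknown. A 0 below means that a gene was listed at 0.

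The L1210 libraries L1210_8 and L1210_15 stood apart. They had 2718 and 1610 detected genes, Rn45s at 79.3 and 55.5% of all TPM, and Tfrc at 0. L1210_8 held 297 TPM of Fth1 and 57.5 TPM of Ftl1, against 8216 and 7333 TPM in its sister. L1210 results that rest on these libraries are given with and without them. At the limit of 1000 genes, the CD8+ library just outside had 714 genes, Fth1 at 0 and Ftl1 at 5122 TPM, and the one just inside had 2639 genes, 3358 and 10694 TPM. In L1210 the library just outside had 801 genes, 8103 TPM of Fth1 and 6531 TPM of Ftl1, and the one just inside was L1210_15.

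Both ferritin subunits were above 0 in every cell. The heavy subunit Fth1, the ferroxidase that oxidizes iron for storage, had a lowest, median and highest level of 219, 1181 and 6264 TPM in CD8+ T-cells and of 297, 4614 and 15544 TPM in L1210 cells. The light subunit Ftl1, which favours mineral formation in the shell, had 330, 2969 and 19255 TPM in CD8+ T-cells and 57.5, 3962 and 8372 TPM in L1210 cells. The ranges of the cell types overlapped for both genes, but the median of Fth1 lay well apart and that of Ftl1 did not. Over lineage means on the ln(TPM + 1) scale, Fth1 was 3.43-fold lower in CD8+ T-cells (−1.23 ± 0.14 SE, limma over 60 lineages, adjusted p = 3.28e-11), whereas Ftl1 did not pass the test (−0.14 ± 0.14, limma adjusted p = 0.365).

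**Figure D1:**
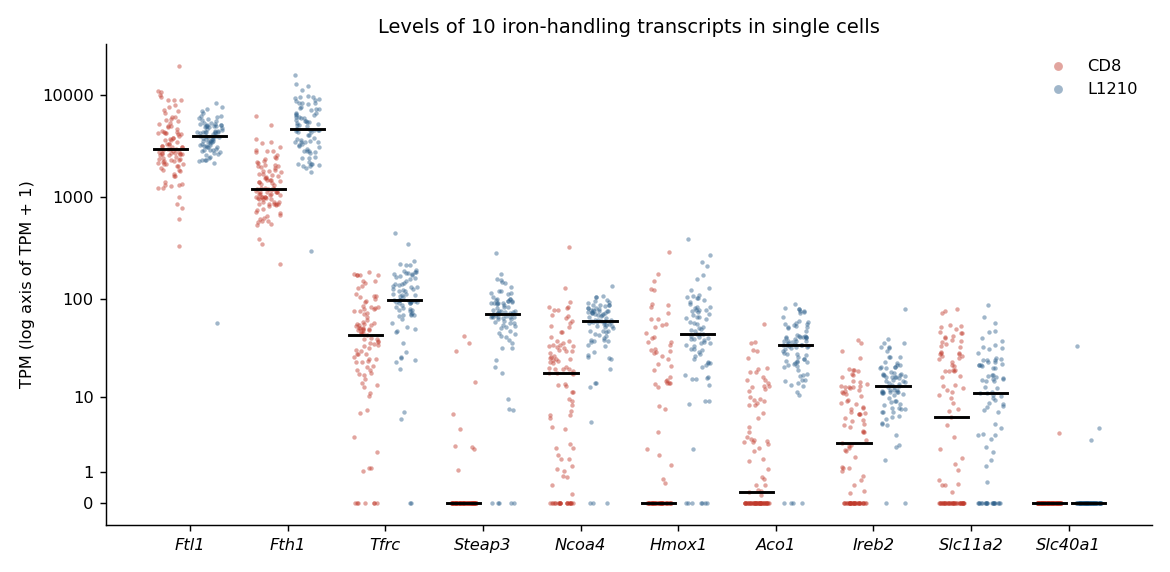
Levels of the 10 genes in single cells, as TPM on a log10 axis of TPM + 1, with 97 CD8+ T-cells beside 81 L1210 cells for each gene. Points are cells and bars are medians. Fth1 and Ftl1 are above 0 in all cells, while Steap3 is at 0 in most CD8+ T-cells and has a median of 70.1 TPM in L1210 cells.

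The proportion of the subunits also differed, which is described here without a test of its own. Ftl1 exceeded Fth1 in all but 5 of the 97 CD8+ T-cells, with a median log2 ratio of Fth1 to Ftl1 of −1.38 (range −2.66 to 3.05). In L1210 cells Fth1 was the higher subunit in 58 of 81 cells, with a median log2 ratio of 0.20 (range −0.44 to 2.37). Over lineages the log2 ratio was −1.24 ± 0.66 (SD, n = 34) in CD8+ T-cells and 0.33 ± 0.44 (SD, n = 26) in L1210 cells. In L1210 the ratio was not fixed. It rose with Fth1 itself (Spearman rho 0.81 over 81 cells, and 0.87 over the 79 cells without L1210_8 and L1210_15), since Fth1 spread more widely than Ftl1 (SD 0.51 against 0.31 ln units over those 79 cells). The ratio and Fth1 share the Fth1 value, so this rho describes the unequal spread and nothing more. TPM scale with transcript length, which makes the levels comparable between genes, but reads of processed ferritin copies could be split between a gene and its copies, and the absolute levels are uncertain for that reason.

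Of the uptake genes, Tfrc was lower in CD8+ T-cells, Slc11a2 did not pass the test, and Steap3 was at 0 in most CD8+ T-cells. Tfrc, the receptor for iron-loaded transferrin, had a lowest, median and highest level of 0, 43.8 and 183 TPM in CD8+ T-cells (above 0 in 90 of 97) and of 0, 96.6 and 446 TPM in L1210 cells (79 of 81). The fitted difference was 2.94-fold (−1.08 ± 0.24 SE, limma adjusted p = 7.9e-05). Tfrc tracked the number of detected genes in CD8+ T-cells (Spearman rho 0.51, 97 cells), and with that number as a covariate the difference shrank to −0.52 (limma adjusted p = 0.0275). Steap3, the endosomal reductase that turns ferric into ferrous iron after uptake, was above 0 in 10 of 97 CD8+ T-cells (highest 42.7 TPM) and in 76 of 81 L1210 cells (median 70.1, highest 279 TPM). The cell types overlapped at the low end, and the fitted difference was −3.66 ± 0.21 (SE) on the ln(TPM + 1) scale, which understates changes of low genes. Steap3 passed the filter on low values in L1210 cells alone, so it entered the fit through the type where it is high, and this difference is given without a test. Slc11a2, the ferrous iron transporter DMT1, had a median of 6.04 TPM in CD8+ T-cells (highest 77.9) and 10.9 TPM in L1210 cells (highest 86.2), with a difference of −0.30 ± 0.27 (SE, limma adjusted p = 0.329).

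The exporter Slc40a1, ferroportin, was listed at 0 in all but 1 CD8+ T-cell (3.90 TPM) and all but 3 L1210 cells (highest 33.9 TPM), and it was too low to test in either type.

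Transcripts of both iron regulatory proteins were lower in CD8+ T-cells. Ireb2 had a median of 2.91 TPM in CD8+ T-cells (highest 38.9, above 0 in 64 cells) and of 12.9 TPM in L1210 cells (highest 78.2, above 0 in 79 cells), a 3.56-fold difference (−1.27 ± 0.18 SE, limma adjusted p = 1.25e-08). Aco1 had a median of 0.280 TPM in CD8+ T-cells (highest 55.9, above 0 in 50 cells) and of 34.3 TPM in L1210 cells (highest 89.2, above 0 in 77 cells), a 9.97-fold difference (−2.30 ± 0.21 SE, limma adjusted p = 8.56e-15). This fold and those of the other genes are ratios of TPM + 1, which understate changes of low genes. Taken back to TPM, the mean over Aco1 lineages was 1.96 TPM in CD8+ T-cells and 28.5 TPM in L1210 cells. In L1210 cells Aco1 exceeded Ireb2 by more than the spread between lineages, while in CD8+ T-cells these neighbours in the order of levels did not differ beyond it.

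Ncoa4 and Hmox1 were also lower. Ncoa4, the cargo receptor that carries ferritin to autophagosomes, had a median of 17.9 TPM in CD8+ T-cells (highest 325, above 0 in 77 cells) and of 59.2 TPM in L1210 cells (highest 133, above 0 in 78 cells). It was 4.91-fold lower in CD8+ T-cells (−1.59 ± 0.27 SE, limma adjusted p = 7.44e-07). Hmox1, heme oxygenase 1, which frees iron from heme, was above 0 in 46 CD8+ T-cells (median 0, highest 285 TPM) and in 74 L1210 cells (median 44.1, highest 383 TPM), a 7.52-fold difference (−2.02 ± 0.33 SE, limma adjusted p = 3.69e-07).

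In all, 9 of the 10 genes passed the filter on low values in at least 1 type, 8 of them in CD8+ T-cells, with all 9 in L1210 cells, and 8 passed it in both. Of these 8, 6 were lower and 0 higher in CD8+ T-cells, beside 49.7% lower and 8.78% higher among the 9160 genes that passed in both types. Over all 11373 genes of the fit, 49.8% were lower and 13.3% higher, with a median difference of −0.41 ln units. Relative to that median, Fth1 lay at −0.82, Tfrc at −0.67, Steap3 at −3.25, Slc11a2 at 0.11 and Ftl1 at 0.27. With the number of detected genes as a covariate the median moved to −0.15 and the split of calls from 1510 higher and 5669 lower to 2080 and 3513. The same 6 genes passed the threshold in that fit, Fth1 at −1.22, and Slc11a2 then stood at 0.29 (limma adjusted p = 0.349). Like Tfrc, Aco1, Ireb2, Hmox1 and Ncoa4 tracked detected genes in CD8+ T-cells (Spearman rho 0.52, 0.49, 0.41 and 0.40). Fth1 had −0.03. The folds printed above come from the fit without this covariate. Without L1210_8 and L1210_15 the difference of Ftl1 was −0.24 (limma adjusted p = 0.0815).

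**Figure D2:**
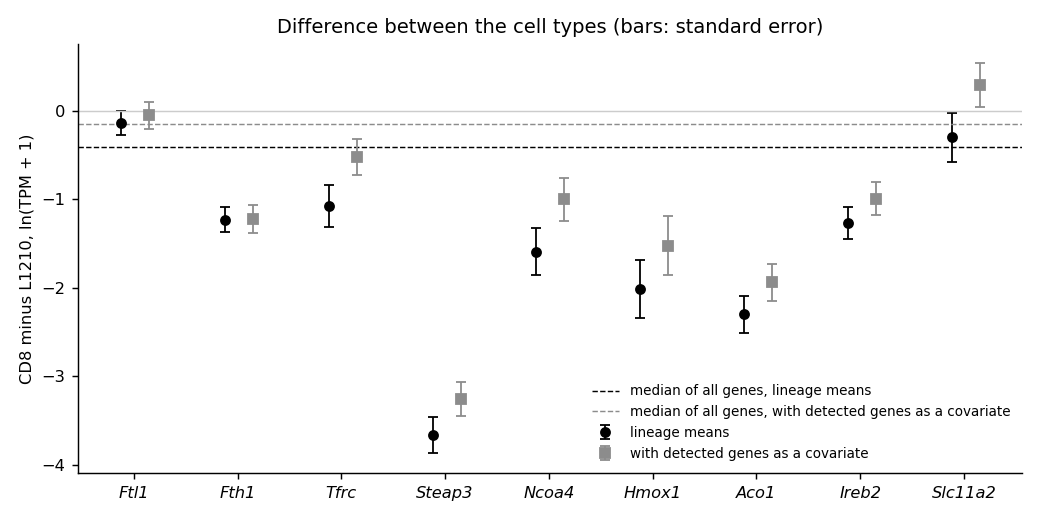
Difference between CD8+ T-cells and L1210 cells (CD8+ minus L1210, ln units of TPM + 1) for the 9 genes in the fit, with bars for the SE over 60 lineages. Steap3 passed the filter in L1210 cells alone and is shown without a test. Circles show the fit to lineage means, squares that with detected genes as a covariate, the grey line marks 0 and the dashed lines the median of all genes in each fit. Fth1 at −1.23 and −1.22 stays in place between the fits, while Tfrc moves from −1.08 to −0.52.

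Within most lineages the cells had similar levels of Fth1, and lineages differed from each other. In lineage L1210_9 the 4 cells had 1767, 2015, 2049 and 2429 TPM of Fth1. In lineage L1210_10 they had 7048, 7253, 9155 and 9282 TPM, and in lineage L1210_54 they had 6042, 9525, 12286 and 12798 TPM. No cell of the first of these lineages reached the lowest cell of the others. Ftl1 followed at 2277 to 2781 TPM in lineage L1210_9 and at 4354 to 8372 TPM in lineage L1210_54. In CD8+ T-cells, the 4 cells of lineage CD8_71 had 348, 537, 580 and 971 TPM of Fth1, those of lineage CD8_51 lay between 842 and 1003 TPM, and those of lineage CD8_83 had 1678, 2059, 2813 and 6264 TPM. Lineage CD8_83 also held the highest Ftl1, at 7999 to 19255 TPM. These lineages are shown as examples from the ends and the middle of the range and were chosen with their values known.

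The ratio of the highest to the lowest Fth1 among relatives had a median of 1.32 over the 24 L1210 lineages with at least 2 cells, and it was under 2-fold in 20 of them. Without L1210_8 and L1210_15 it was under 2-fold in 21 of 23, while the cells as a whole spanned 8.79-fold (52.1-fold with both libraries). Ftl1 in L1210 stayed within 2-fold in 21 of 24 lineages, with a median ratio of 1.24. In CD8+ T-cells the Fth1 ratio had a median of 1.49 and was under 2-fold in 19 of 27 lineages, against 28.4-fold over all cells. A ratio of extremes grows with the number of cells, so the spans over all cells and those within a lineage are not on the same footing. Ftl1 was looser there, with a median ratio of 2.10 and 10 of 27 lineages under 2-fold. Tfrc had wider ratios than both subunits in either type, with median ratios of 2.97 in CD8+ T-cells against 2.15 in L1210 cells. From the lowest to the highest lineage, the geometric mean of Fth1 differed 7.56-fold in CD8+ T-cells and 6.65-fold in L1210 cells.

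**Figure D3:**
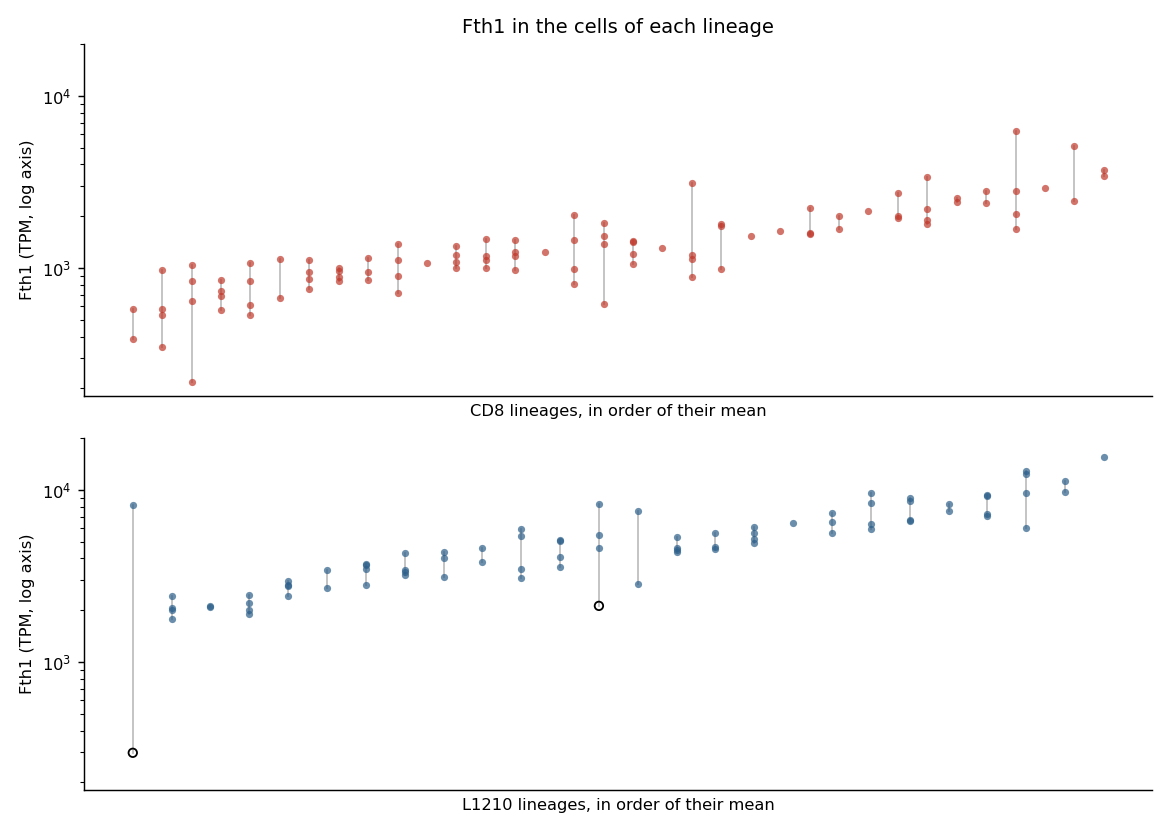
Fth1 (TPM, log10 axis) in every cell, arranged by lineage and ordered by lineage mean within each cell type. Points are cells, open circles are L1210_8 and L1210_15, and vertical lines join the lowest and highest cell of a lineage. Most lineages, each of few cells, occupy a short stretch of the whole range, and L1210_8 at 297 TPM falls far below its sister at 8216 TPM.

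The intraclass correlation, the share of variance among cells that lies between lineages, ranks the genes on this likeness. In CD8+ T-cells it was 0.66 for Fth1, 16th of 9997 genes, and 0.55 for Ftl1, 56th, beside a median of 0.0902 over all genes. Hmox1 followed at 0.37, Ncoa4 at 0.31, Aco1 at 0.27 and Tfrc at 0.26, whereas the transporter Slc11a2 at 0.09 and the regulator Ireb2 at −0.01 lay at or below that median. In L1210 cells Fth1 was at 0.56, 51st of 10536 genes, and Ftl1 at 0.25, beside a median of 0.109. Here the 2 poor libraries carried weight. Without them Fth1 was at 0.84 and Ftl1 at 0.73, the 1st and 4th of 10652 genes, and the median was 0.0677. The other 7 genes then lay between −0.06 and 0.09, although Steap3 and Hmox1 had been at 0.28 and 0.25 with both libraries included. Fth1 thus had the highest value of the group in both types, and Ftl1 the next in CD8+ T-cells and, once the 2 libraries were left out, in L1210 cells.

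Relatives also share much of their hours since division, and libraries differ in their number of detected genes. With hours removed, Fth1 was at 0.63 in CD8+ T-cells against 0.55 in L1210 cells, and Ftl1 at 0.36 and 0.24. With detected genes removed, Fth1 was at 0.69 and 0.58 and Ftl1 at 0.55 and 0.26. These L1210 values include L1210_8 and L1210_15, and stand beside 0.56 for Fth1 and 0.25 for Ftl1 with nothing removed. Fth1 itself had a Spearman rho with detected genes of −0.03 over 97 CD8+ T-cells and −0.24 over 81 L1210 cells, and with the share of Rn45s of −0.59 and 0.38.

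**Figure D4:**
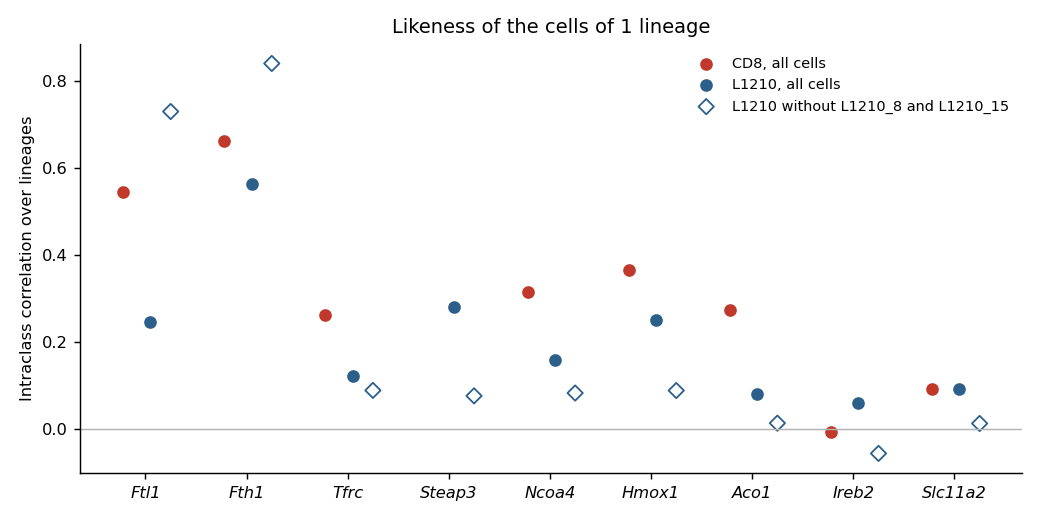
Intraclass correlation of each gene within lineages (unitless), for CD8+ T-cells, for all L1210 cells and for L1210 cells without L1210_8 and L1210_15. Points are genes and the grey line marks 0. Fth1 and Ftl1 stand above the other genes in CD8+ T-cells (0.66 and 0.55) and in L1210 cells without the 2 libraries (0.84 and 0.73).

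Fth1 and Ftl1 rose and fell together, with the higher correlations in L1210 cells. Over 97 CD8+ T-cells, Pearson's r of the ln(TPM + 1) levels was 0.60 and Spearman's rho 0.57. Over 81 L1210 cells they were 0.86 and 0.91, and without L1210_8 and L1210_15 they were 0.91 and 0.90. Cells of a lineage share ancestry, handling and hours, so the relation was also taken apart. Over lineage means r was 0.63 in CD8+ T-cells against 0.84 in L1210 cells (0.92 without the 2 libraries). Over each cell's deviation from its lineage mean r was 0.49 in CD8+ T-cells against 0.92 in L1210 cells, where it fell to 0.69 without the 2 libraries. The subunits thus varied together both between lineages and among close relatives. All genes of a library share its total of 1000000 TPM, which ties them to each other to an unknown degree.

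The opposition of ferritin and Tfrc in the description of the gene group was weak over all cells and stronger within CD8+ lineages. In CD8+ T-cells r of Fth1 with Tfrc was −0.23 and rho −0.20 (97 cells), with −0.16 over lineage means and −0.34 within lineages. That r over cells was −0.15 with at least 4000 genes per cell and −0.19 with detected genes removed. Tfrc had a rho of 0.51 with detected genes and 0.36 with Rn45s in these cells, where Fth1 had −0.03 and −0.59. The part of these library traits in the values within lineages was not tested. In L1210 cells r was 0.23 and rho −0.21 (81 cells). The positive r rested on L1210_8 and L1210_15, without which r was −0.16 and rho −0.29, with −0.10 over lineage means and −0.07 within lineages. Ftl1 and Tfrc gave r of −0.07 and rho of −0.17 in CD8+ T-cells, and r of −0.17 and rho of −0.34 in L1210 cells without those libraries. Over cells and over lineage means these values were nearer 0 than those of the subunits with each other. Within lineages Spearman's rho of Tfrc in CD8+ T-cells was −0.43 with Fth1 and −0.37 with Ftl1, beside 0.53 for the subunits. In L1210 cells without those libraries it was −0.01 and −0.12, beside 0.58. Lineage L1210_9, with the low Fth1 given above, had Tfrc between 124 and 179 TPM, above the L1210 median of 96.6 TPM.

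**Figure D5:**
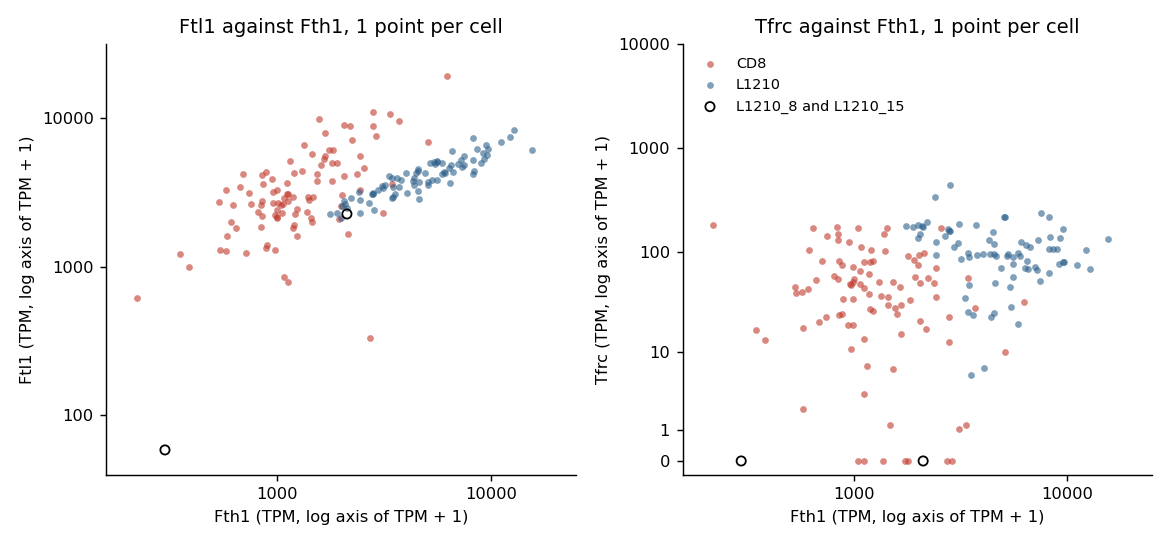
Ftl1 and Tfrc against Fth1 in single cells (TPM, log10 axes of TPM + 1), with points for 97 CD8+ T-cells and 81 L1210 cells and open circles for L1210_8 and L1210_15. Ftl1 rises with Fth1 in both types (rho 0.57 and 0.91), with the CD8+ T-cells displaced toward more Ftl1, while Tfrc shows little relation to Fth1 (rho −0.20 and −0.21).

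Among the other genes, Hmox1 varied with Fth1 at a rho of 0.32 in CD8+ T-cells against 0.31 in L1210 cells. Ncoa4 had a rho with Fth1 of −0.35 in CD8+ T-cells against 0.07 in L1210 cells. In CD8+ T-cells Ncoa4 also had a rho of 0.40 with detected genes and 0.50 with the share of Rn45s, and the part of either in its relation to Fth1 was not tested.

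Sisters and cousins could be compared in the lineages with 4 cells, which asks whether sisters resembled each other more than cousins did. For the ferritin subunits no nearer resemblance of sisters was detected. The mean distance of Fth1 between sisters was 0.36 ln units and between cousins 0.40 in the 16 CD8+ lineages (exact sign-flip test over lineages, adjusted p = 0.531), and it was 0.21 and 0.25 in the 14 L1210 lineages (exact sign-flip test, adjusted p = 0.601). Ftl1 gave 0.39 and 0.46 in CD8+ T-cells and 0.16 and 0.18 in L1210 cells. Of 17 tests, adjusted together, the sign-flip test called 2. The sign-flip test presumes that differences are symmetric around 0. With 4 cells that holds only roughly, so an exact re-pairing of the 4 cells was added after the data had been seen, and it called 1.

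For 4 values, only 1 of the 3 possible pairings puts sisters nearer than cousins, against which the counts of lineages below are to be read. The call that both tests made was Steap3 in L1210 cells. Sisters differed by 0.65 ± 0.61 (SD) and cousins by 1.18 ± 1.25 ln units, with sisters nearer than cousins in 9 of 14 lineages (exact sign-flip test, adjusted p = 0.0498; exact re-pairing, adjusted p = 0.00364). In lineage L1210_4 the sisters of one pair had 60.1 and 104.3 TPM of Steap3 while both of the other pair were at 0. In lineage L1210_1 the pairs had 142 and 156 TPM against 51.2 and 7.29 TPM, and in lineage L1210_34 they had 129 and 77.8 TPM against 45.03 and 9.41 TPM. Each pair lay on its own side in these lineages, which were chosen for it. Without L1210_8 and L1210_15 sisters were nearer in 8 of 13 lineages, and the adjusted p was 0.0109 by exact re-pairing and 0.0996 by the exact sign-flip test. Slc11a2 in CD8+ T-cells was called the other way by the sign-flip test alone, with sisters 2.22 and cousins 1.59 ln units apart and sisters nearer in 0 of 16 lineages (exact sign-flip test, adjusted p = 0.00415; exact re-pairing, adjusted p = 0.196).

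Hours since division ranged from 0.5 to 9.48 in 94 timed CD8+ T-cells and from 0.354 to 12.8 in L1210 cells. The slopes of the ferritin subunits with time were smaller than or close to their errors. Fth1 changed by 0.05 ± 0.04 ln units per hour (SE, 31 lineages) in CD8+ T-cells and by 0.01 ± 0.03 (26 lineages) in L1210 cells, and Ftl1 by 0.01 ± 0.05 and −0.01 ± 0.03. The steepest slopes of the group were those of Ncoa4 and Aco1 in CD8+ T-cells, at −0.23 ± 0.08 and −0.19 ± 0.07 ln units per hour, beside a median of −0.03 over all genes. Tfrc was at −0.05 ± 0.07 in CD8+ T-cells, while every L1210 slope of a gene of the group that passed the filter lay within 0.05 of 0. Over all genes limma called 4 of 9997 in CD8+ T-cells (0.0400%; 1306 at an unadjusted p under 0.05) and 0 of 10536 in L1210 cells (0%; 562 unadjusted). The slopes of the 2 types were called different for 0 of 9160 genes (0%; 1058 unadjusted).

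The wider iron machinery was described by 8 lists of other genes, of which 79 passed the filter in both cell types. Of these, 12 were higher and 36 lower in CD8+ T-cells (limma adjusted p under 0.05), beside 8.78 and 49.7% of all such genes, with a median difference of −0.44 ln units against −0.46. Of the 9 uptake and delivery genes among them, 2 were higher and 5 lower. Snx3, a sorting nexin that recycles the transferrin receptor, was higher (1.19 ln units), with a median of 308 TPM in CD8+ T-cells and 112 TPM in L1210 cells, and mitoferrin 1, Slc25a37, was lower (−1.63), with medians of 6.27 and 37.5 TPM. Of the 2 sensing genes, Hif1a was higher (1.99; medians 42.1 and 2.87 TPM), and the iron-sensing ubiquitin ligase subunit Fbxl5 was lower (−0.94).

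Of 17 genes of heme synthesis and turnover, 4 were higher and 8 lower, led by biliverdin reductase B, Blvrb (−3.63; medians 0 and 147 TPM), and the mitochondrial transporters Abcb10 (−2.71; medians 0 and 33.5 TPM) and Abcb6 (−2.07). Of 17 genes of mitochondrial iron-sulphur assembly, 0 were higher and 7 lower, among them Lyrm4 (−1.34), Isca1 (−1.09) and the chaperone Hspa9 (−0.89). Of 11 genes of cytosolic assembly, 2 were higher and 4 lower, with Nubp2 at 0.67 and Ciapin1 at −1.14. Of the 8 genes of ferritin autophagy, 0 were higher and 5 lower, among them Atg9a (−1.09), Pik3c3 (−1.04) and Map1lc3b (−0.89). Of 13 genes of the Nrf2 pathway, which induces ferritin and detoxifying enzymes under oxidative stress, 3 were higher and 5 lower, with Osgin1 at −1.96, the quinone reductase Nqo1 at 1.13 and Nfe2l2, the gene of Nrf2 itself, at −1.30. Of 2 other transcripts with a described iron responsive element, Cdc14a was lower (−0.90). With detected genes as a covariate, and including the 3 genes over the filter in 1 type, 41 of 82 were called, where 49.2% of all genes were, and Fbxl5 (limma adjusted p = 0.113) was not among them.

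Likeness within lineages was called for 8 of 80 such genes in CD8+ T-cells, where 12.4% of all genes were called, and for 13 of 81 in L1210 cells, where 12.9% were. The shares of 10 and 16% were near the background. In CD8+ T-cells the highest values were those of 2 Nrf2 targets, Txnrd1, thioredoxin reductase 1 (0.60, limma adjusted p = 1.57e-06), and Gclm, the modifier subunit of glutathione synthesis (0.55, limma adjusted p = 4.35e-06). Both passed with hours removed, at 0.50 and 0.48. In L1210 cells Gclm was at 0.32 (limma adjusted p = 0.0225), while Txnrd1 was at 0.06 (limma adjusted p = 0.458). Without L1210_8 and L1210_15, 3 of 82 genes were called in L1210 cells, where 3.76% of all genes were. They were Txnrd1 at 0.43 (limma adjusted p = 0.0156), the mitochondrial transporter Abcb10 at 0.39 (limma adjusted p = 0.0149) and Gclm at 0.33 (limma adjusted p = 0.047). Of the genes called with both libraries included, Alas1, the entry enzyme of heme synthesis, had stood at 0.37 and Fam96b, of cytosolic iron-sulphur delivery, at 0.38.

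The genes most like Fth1 were sought by Spearman's rho over cells, among genes above the filter in more than 50% of cells. In L1210 cells Ftl1 was the nearest of 8242 genes at 0.91, followed at a distance by Esd (0.68), Coro1a (0.60), Rbm3 (0.60) and Bin1 (0.58), beside a median of −0.05. The lowest were Pfas (−0.58), an enzyme of purine synthesis, Hsp90aa1 (−0.54), Loxl2 (−0.53), the nucleolar protein gene Nolc1 (−0.52) and the histone gene Hist2h3b (−0.50). In CD8+ T-cells Ftl1 was 16th of 6157 genes at 0.57, behind Gm10094, Ranbp1 and Lgals1 (each 0.65), Ptma and Nme1 (each 0.64), and the lowest were Foxp1 (−0.67), Chd4 (−0.60), Rn45s (−0.59), Prkacb (−0.59) and Pold1 (−0.58). Of the Nrf2 list, 11 of 12 genes had a rho above 0 with Fth1 in L1210 cells (median 0.23), with Txnrd1 at 0.55, where 37% of all genes did, and 4 of 11 in CD8+ T-cells (median −0.09), with Prdx1 at 0.62, where 32.7% did. Blvrb of the heme list reached 0.52 in L1210 cells. These are descriptions over cells that share lineages and TPM totals.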

How the data were processed

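The authors prepared Smart-Seq2 libraries of single cells and deposited 1 table of TPM for UCSC mouse genes (mm10), made with RSEM 1.2.3 per the labels. Each library summed to 1000000 TPM. TPM are no counts, so no count test was used, and read depth could not be recovered from them. The paper gives an average depth and quality metrics for each sample, which were not used here.

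Doublets and libraries with fewer than 1000 genes above 0 TPM were left out, and genes with ln(TPM + 1) above 1 in more than 10% of cells of a type were kept. The study kept fewer L1210 cells under the same stated limits and does not name the difference, so all that passed were used. Lineages were the cells whose sister and cousin labels named each other. Lineage means were compared with limma 3.58.1 in R 4.3.3, and p-values were adjusted by Benjamini-Hochberg over every gene in the fit. Slopes were fitted with limma on lineage means against mean hours, and likeness is the intraclass correlation over lineages of at least 2 cells. Its p-values come from a limma F test of lineage over cells. Sisters and cousins were compared with two-sided exact tests adjusted over 17 tests. The fits were tested on simulated data. No genome sequence was used beyond the transcripts.

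The 10 genes, the lists and the markers were chosen with earlier results of these data known. The text names all 10 genes, the 5 genes with the highest and the 5 with the lowest rho with Fth1 in each type, and up to 3 genes of lowest p per list and comparison among those called, with the markers and Rn45s. Of the ferritin copies in the table, Fthl17 was at 0 in every cell used. Part of the B-lineage marker list is not reported here. Alternatives were other pseudocounts, gene filters and gene minima, rescaling without Rn45s, detected genes or hours removed, cells with lineage as a random block, only lineages of 2 or more cells, and leaving out single libraries.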

Additional observations from a re-analysis of the deposited data

How the results depend on the processing

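Several counts of called genes moved with the processing, and the cause was not tested. Leaving out L1210_8 and L1210_15, the exact re-pairing of cells and the counts over genes that passed the filter in both cell types were chosen after seeing the data. The number of genes called for likeness in L1210 cells was 1360, and it was 556 with at least 4000 detected genes per cell, 373 with detected genes removed, 401 without L1210_8 and L1210_15 and 775 with hours removed. In CD8+ T-cells it was 1238, with 802 once detected genes and 521 once hours were removed. Slopes with time were called for 4 genes in CD8+ T-cells, for 24 with a pseudocount of 10 TPM, 12 with at least 4000 genes and 23 with lineage as a random block. They were called for 1 gene in L1210 cells with detected genes removed, and for 3 in the difference between the types with a pseudocount of 10 TPM. In L1210 cells r of Fth1 with Ftl1, 0.86, was 0.907 with at least 4000 genes and without the 2 libraries, 0.908 as Spearman's rho and 0.917 over deviations within lineages. The r of Fth1 with Tfrc, 0.23, reversed to −0.182, −0.161 and −0.210 under the first 3 of these and was 0.545 over deviations. Among slopes in L1210 cells, that of Ftl1 (−0.0116) reversed to 0.0180 with at least 4000 genes and 0.0183 without the 2 libraries, that of Tfrc to 0.0222 without them, that of Aco1 to 0.00672 and 0.00535, and that of Ncoa4 to 0.0192 and 0.0121. The likeness of Tfrc in L1210 cells reversed to −0.146 with detected genes removed, and that of Steap3 to −0.0903 with at least 4000 genes. Sister and cousin calls fell from 2 to 1 without the 2 libraries, with exact re-pairing and with both changes together. No paired analysis was possible because, between the cell types, replicate numbers in the labels are only cell numbers. The 6 genes of the group called between the cell types were called in the same direction under every alternative run. Read counts and depth were not used, so how far depth limits low genes such as Slc40a1 was not tested.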
